A study of Homo sapiens with 10 samples.

Results

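CD44 is the cell surface receptor for hyaluronan, and its RNA was read row by row in SW620, a human colon cancer cell line grown from a lymph node metastasis, and in derivatives of that line. The series has 4 arrays of parental SW620 cells, 3 of liver metastasis derivatives and 3 of lung metastasis derivatives. Derivative cells had been taken from metastases that arose in balb/c nude mice and were expanded in culture before RNA extraction. All titles call the arrays biological replicates, and the labels do not say whether replicates are separate metastases, clones or cultures, so p-values measure only the spread between these arrays. All 10 share the SW620 background and the same growth medium. The members are the 23 rows of the deposited table whose only listed gene symbol is CD44 (gene on chromosome 11), out of 54806 rows with 1 symbol and 65535 rows in all. They are numbered here 1 to 23 in the order of their identifiers, from 7939342 to 7939364, and 0 further rows list CD44 beside another symbol. The values are log2 expression values, so a difference of 1 is a 2-fold change, and a row was called at a limma adjusted p under 0.05 over all 56949 rows with a listed gene.

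The CD44 gene has a group of constant exons at each end and a run of variable exons between them, and splicing decides which variable exons enter the messenger RNA. The standard form carries none of them and is widespread, while epithelial cells and carcinomas also make longer variant forms that can present growth factors at the surface. In the intestine CD44 is a Wnt target found in crypt base cells, and it is often used as a marker of stem-like colon cancer cells. Neither the exon nor the genomic place of a row is given in the sources used here. No row is therefore assigned to a constant or a variable exon, and the question asked is whether all rows moved together or only some.

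The promoter is shown because it is the sequence that transcripts from the gene's annotated start share, whichever exons follow. It comes from RefSeq, build GRCh38.p14, chr11:35138921-35139170 on the plus strand, and holds the 250 bases before the start of the gene. The capitals mark the single match to the AP-1 letters TNAGTCA, which 9.8% of 35116 promoters of the same length hold on either strand.
CD44 promoter: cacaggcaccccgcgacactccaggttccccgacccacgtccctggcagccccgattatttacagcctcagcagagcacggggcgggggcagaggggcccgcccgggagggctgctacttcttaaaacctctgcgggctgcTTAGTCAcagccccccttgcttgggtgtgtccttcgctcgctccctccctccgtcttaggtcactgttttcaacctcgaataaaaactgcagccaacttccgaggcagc
The window also held 2 matches to the SP1 letters GGGCGG, which 42.6% of promoters hold, and no match on either strand to the TCF/LEF letters CTTTGAT (2.26% of promoters), TATAAA (10.7%) or CCAAT (32.0%). The motifs do not overlap with each other here. These matches are descriptions of the letters and were not tested against the expression values.

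Array medians over all rows of the table lay between 8.52 and 8.60. Across all rows, parental array 4 correlated at 0.968 to 0.970 with the other parental arrays, which correlated at 0.987 to 0.989 with each other, and at 0.966 to 0.967 with the lung arrays. Liver arrays correlated at 0.980 to 0.983 with parental arrays 1 to 3 and at 0.959 to 0.964 with parental array 4. Lung arrays correlated at 0.946 to 0.961 with parental arrays 1 to 3 and at 0.969 to 0.971 with each other. Parental array 4 and the lung arrays are therefore also treated as an array set. The labels name no batch, and this split was drawn from the data. Adding the set to the limma model leaves parental array 4 as the only parental array against which lung derivatives are read, and the result is given as the set value. The keratins of simple epithelium KRT8 and KRT18 read 12.75 and 11.62 as means of their rows in parental cells, and the leukocyte phosphatase PTPRC read 5.04.

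CD44 RNA was highest in parental cells, lower in liver and lowest in lung derivatives, though the call between the derivatives depended on single arrays. As the mean of the 23 rows it read 7.79, 7.98, 7.82 and 7.96 on the parental arrays, 7.11, 7.16 and 7.39 on the liver arrays and 6.62, 6.55 and 6.99 on the lung arrays. The 3 groups did not overlap, and replicate 3 was the highest array in both kinds of derivative. The gene fell 1.59-fold in liver derivatives (7.22 ± 0.15 against 7.89 ± 0.09, SD, n = 3 and 4; log2 difference -0.67, SE 0.11, limma adjusted p = 0.00256 over 4713 genes). It fell 2.25-fold in lung derivatives (6.72 ± 0.24, SD, n = 3; log2 difference -1.17, SE 0.11, limma adjusted p = 6.03e-05). By this mean 3.50% of genes were called lower and 4.33% higher in liver derivatives, and 17.3% lower and 12.9% higher in lung derivatives. CD44 had the 48th lowest difference of 4713 genes in liver and the 18th lowest in lung derivatives, where the median gene differed by 0.01 and -0.01.

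**Figure D1:**
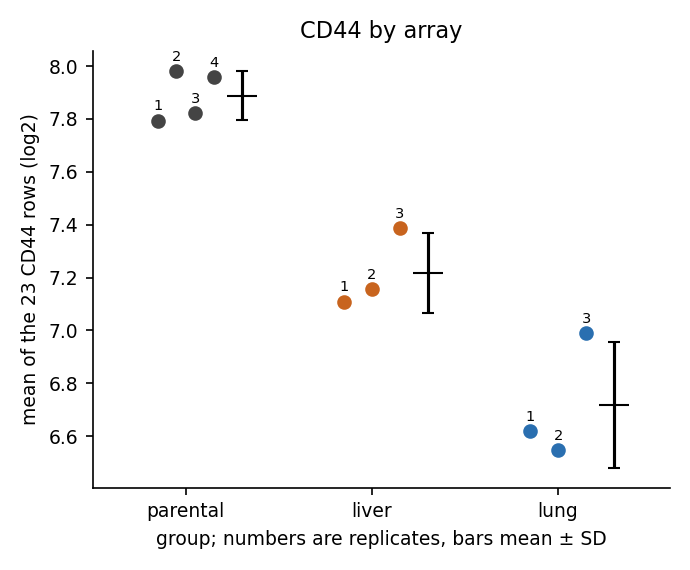
Mean of the 23 CD44 rows on each array (points, log2 units, numbered by replicate) with the group mean ± SD beside them. The parental arrays lie between 7.79 and 7.98, the liver arrays between 7.11 and 7.39 and the lung arrays between 6.55 and 6.99.

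Against parental array 4 alone the lung difference was -1.24 (set value, SE 0.17). All 3 lung arrays lay below parental array 4 in 21 of the 23 rows, and the share over all rows was not counted. The 21 include rows 1 and 2. There the highest lung array read 8.37 and 10.21, against 8.38 and 10.25 on parental array 4. The liver difference with the set term was -0.65 (limma adjusted p = 0.0066). Over 19 alternatives the adjusted p of the liver difference ran from 2.02e-05 to 0.186, and the 0.186 came from the brightest row alone. That of the lung difference ran from 1.66e-05 to 0.00908. In RNA from whole cultures, fewer cells that carry CD44 and less CD44 RNA per cell cannot be told apart.

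Row by row, the fall in lung derivatives covered 14 of the 23 rows (60.9%), and 0 rows were higher. Over the whole table, called rows in this comparison were 7.99% lower and 5.15% higher, 13.1% either way. The lung and parental arrays did not overlap in 16 rows, all lower, against 14.3% of all rows lower without overlap. The median difference of the CD44 rows was -1.17, against -0.03 for all rows. Of 2367 genes with at least 10 rows, 21 including CD44 had as large a share of their rows called lower.

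In liver derivatives 20 of 23 rows were below the parental mean, a share not counted over all rows, and 3 (13%) were called: rows 4, 6 and 23. The share called lower over all rows was 1.04%, and 1.15% were called higher (2.20% either way), among them 0 CD44 rows. The liver arrays lay below all parental arrays without overlap in 14 rows, against 7.56% of all rows. The median difference was -0.78 against 0.01 for all rows. The count of 3 rose to 6 without lung replicate 1 and to 7 without lung replicate 3, which enter through the shared estimate of the spread. It was 12 with array weights. The share of all rows called under these alternatives was not counted, so the changes in count are not read as a result about CD44. The liver and lung comparisons share the parental arrays, so their values are set side by side below and nothing is read from their likeness.

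**Figure D2:**
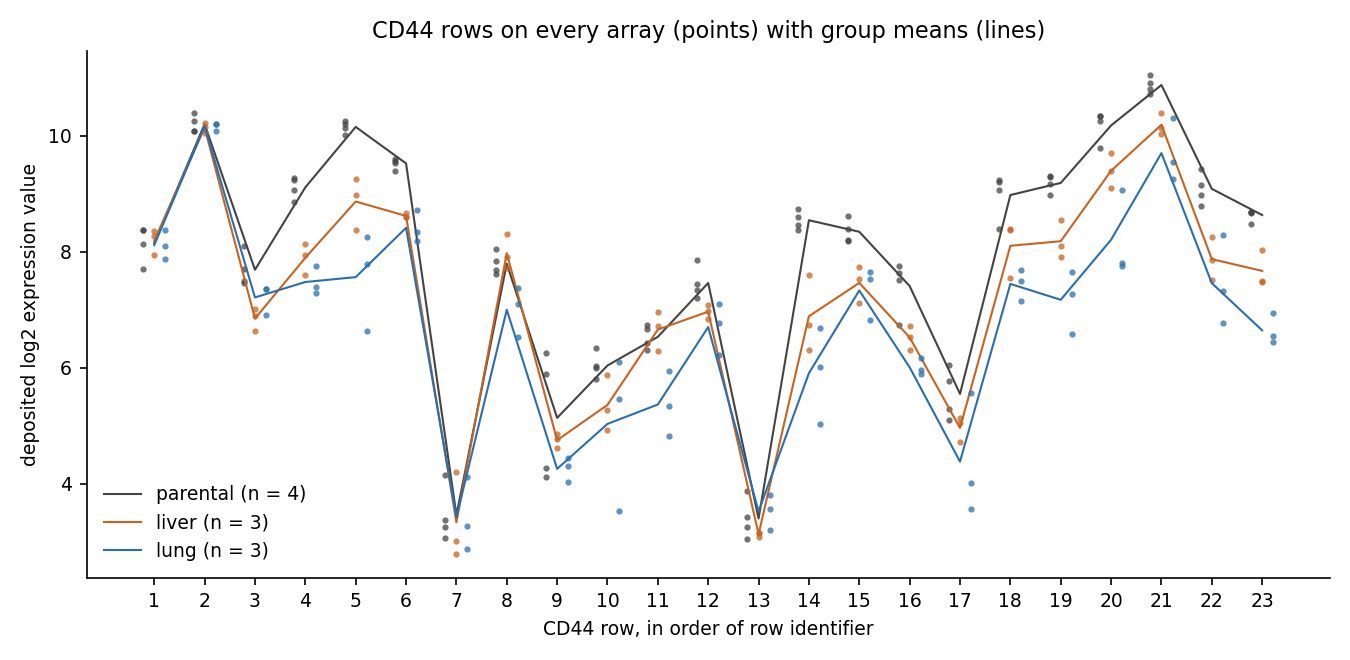
Deposited log2 value (vertical axis) of each CD44 row in identifier order (horizontal axis) on every array (points), with lines through the means of the 4 parental, 3 liver and 3 lung arrays. The lines meet at rows 1 and 2 and at the dim rows 7 and 13, and part over rows 4 to 6, 14 and 18 to 23.

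Along the identifier order the rows fell into 4 stretches, drawn after their values were seen and not tested. Rows 1 and 2 had median differences of -0.01 in liver and -0.04 in lung derivatives. Rows 3 to 6 had medians of -1.06 and -1.37, and rows 18 to 23 of -0.92 and -1.80. Rows 7 to 17, which hold all 7 CD44 rows among the dimmest 25% of the table (mean under 6.81), had medians of -0.49 and -1.01. In the lung comparison 0 of 2, 3 of 4, 5 of 11 and 6 of 6 rows of these stretches were called.

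Rows 3 to 6 read as follows. Row 4 read 9.28, 9.24, 9.07 and 8.85 on the parental arrays, 7.61, 8.14 and 7.95 on the liver arrays and 7.29, 7.39 and 7.75 on the lung arrays. Both kinds of derivative lay below all parental arrays, and the differences were -1.21 (SE 0.17, limma adjusted p = 0.00666) in liver and -1.63 (SE 0.17, limma adjusted p = 0.00156) in lung derivatives. Row 6 read 9.40, 9.59, 9.57 and 9.53 on the parental arrays, 8.60, 8.66 and 8.59 on the liver arrays and 8.34, 8.19 and 8.71 on the lung arrays. It had the smallest spread between liver arrays in this stretch (SD 0.04), and it differed by -0.91 (SE 0.13, limma adjusted p = 0.00672) in liver and -1.11 (SE 0.13, limma adjusted p = 0.00246) in lung derivatives.

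Row 5 had the widest spread of the stretch among lung arrays. It read 10.01, 10.26, 10.21 and 10.13 on the parental arrays, 8.37, 8.97 and 9.25 on the liver arrays and 6.64, 7.79 and 8.26 on the lung arrays. The groups did not overlap, and the lung arrays alone spanned more than the distance between the liver and lung means. Row 5 fell 6.02-fold in lung derivatives (log2 difference -2.59, SE 0.35, limma adjusted p = 0.00416; set value -2.57, limma adjusted p = 0.083), while in liver derivatives its difference of -1.29 (SE 0.35) was not called (limma adjusted p = 0.124). Row 3, at 7.69 ± 0.30 in parental cells, lay lower without overlap in both kinds of derivative and was not called in either, with differences of -0.84 (limma adjusted p = 0.0586) and -0.48 (limma adjusted p = 0.118).

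Rows 18 to 23 were all called in lung derivatives. Row 23 read 8.67, 8.69, 8.49 and 8.69 on the parental arrays, 7.50, 7.48 and 8.03 on the liver arrays and 6.54, 6.44 and 6.95 on the lung arrays. The 3 groups were separate, and row 23 fell 1.95-fold in liver (log2 difference -0.96, SE 0.17, limma adjusted p = 0.0197) and 3.96-fold in lung derivatives (-1.99, SE 0.17, limma adjusted p = 0.000543). It also followed the rest of the gene most closely, with a correlation over the 10 arrays of 0.987 with the mean of the other 22 rows. With the set term rows 4, 6 and 23 were the 3 rows still called in lung derivatives, where 0.371% of all rows were called lower, and row 23 differed by -2.05.

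Row 21 was the brightest CD44 row. It read 10.72, 10.81, 10.91 and 11.05 on the parental arrays, 10.04, 10.14 and 10.39 on the liver arrays and 9.25, 9.54 and 10.31 on the lung arrays. Lung array 3 sat among the liver arrays, and the lung difference was -1.17 (SE 0.23, limma adjusted p = 0.015). Row 20 read 10.33, 10.33, 10.25 and 9.79 on the parental arrays, 9.11, 9.39 and 9.69 on the liver arrays and 7.80, 7.75 and 9.07 on the lung arrays. Here too lung array 3 was the highest of its group, and the lung difference was -1.97 (SE 0.32, limma adjusted p = 0.00803).

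Row 19 read 9.31, 9.18, 9.29 and 8.97 on the parental arrays, 7.91, 8.10 and 8.54 on the liver arrays and 6.58, 7.28 and 7.65 on the lung arrays. The 3 groups did not overlap, and the lung difference was -2.01 (SE 0.25, limma adjusted p = 0.00292). Row 18 read 8.40, 9.06, 9.21 and 9.24 on the parental arrays, 8.37, 8.38 and 7.55 on the liver arrays and 7.68, 7.16 and 7.50 on the lung arrays. Parental array 1 lay just above the highest liver arrays, and the lung difference was -1.53 (SE 0.27, limma adjusted p = 0.0111). Row 22 read 8.97, 9.43, 9.14 and 8.79 on the parental arrays, 7.51, 7.85 and 8.26 on the liver arrays and 6.78, 7.32 and 8.28 on the lung arrays. Lung array 3 was as high there as the highest liver array, and the lung difference was -1.63 (SE 0.33, limma adjusted p = 0.0181). In liver derivatives the uncalled rows 18 to 22 differed by -0.69 to -1.21.

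**Figure D3:**
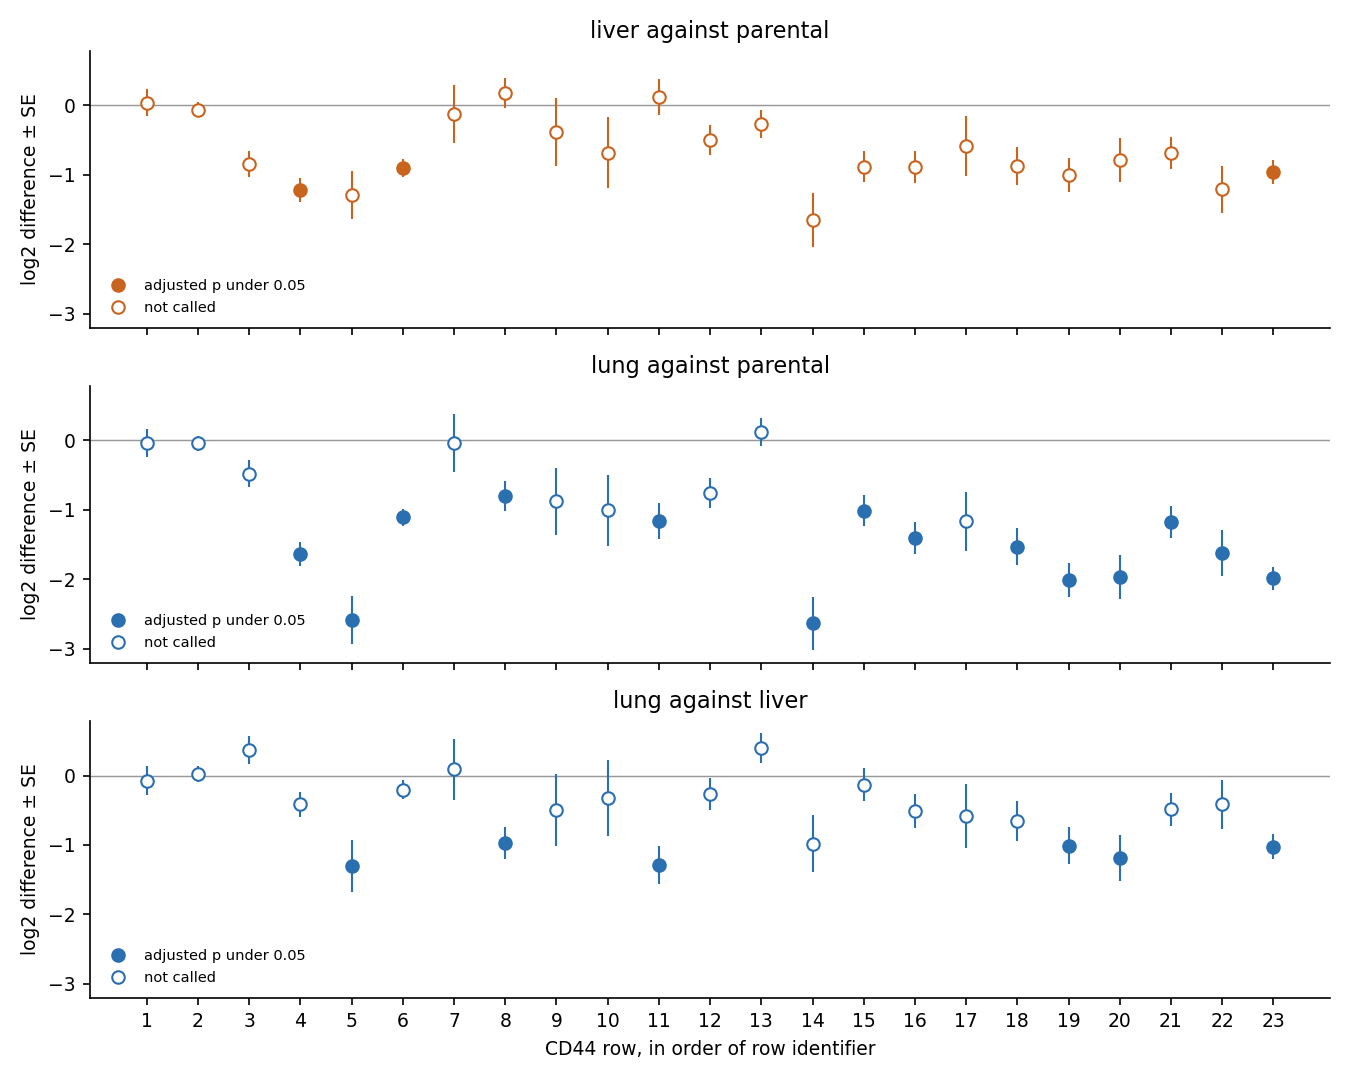
Difference of group means (log2 units, ± SE of the limma fit) for each CD44 row in identifier order, for liver against parental, lung against parental and lung against liver. Filled points have an adjusted p under 0.05: 3, 14 and 6 of the 23 rows, all below 0.

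Between these stretches, rows 7 to 17 were uneven. Row 14 had the lowest difference of all 23 rows in both derivatives. It read 8.74, 8.45, 8.37 and 8.61 on the parental arrays, 6.74, 6.31 and 7.61 on the liver arrays and 5.04, 6.01 and 6.68 on the lung arrays. All derivative arrays lay below all parental arrays, with the lung and liver arrays overlapping, and row 14 fell 6.22-fold in lung derivatives (log2 difference -2.64, SE 0.39, limma adjusted p = 0.00575). In liver derivatives it differed by -1.66 (SE 0.39, limma adjusted p = 0.0711).

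Row 15 read 8.39, 8.19, 8.18 and 8.61 on the parental arrays, 7.12, 7.74 and 7.52 on the liver arrays and 7.53, 6.83 and 7.65 on the lung arrays. The liver and lung arrays overlapped below the parental range, and the lung difference was -1.01 (SE 0.22, limma adjusted p = 0.0235). Row 16 read 7.51, 7.64, 6.73 and 7.75 on the parental arrays, 6.53, 6.31 and 6.73 on the liver arrays and 5.89, 5.96 and 6.17 on the lung arrays. Parental array 3 stood close to the highest liver array, and the lung difference was -1.40 (SE 0.23, limma adjusted p = 0.00906).

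Rows 8 and 11 were low in lung derivatives and near the parental level in liver derivatives. Row 8 read 7.85, 7.68, 8.05 and 7.61 on the parental arrays, 7.72, 7.91 and 8.30 on the liver arrays and 7.37, 6.53 and 7.11 on the lung arrays. Row 11 read 6.30, 6.67, 6.43 and 6.73 on the parental arrays, 6.29, 6.73 and 6.96 on the liver arrays and 4.82, 5.34 and 5.94 on the lung arrays. In both rows the liver and parental arrays overlapped and all lung arrays lay below them. The lung difference from parental cells was -0.80 (SE 0.22, limma adjusted p = 0.0432) in row 8 and -1.17 (SE 0.26, limma adjusted p = 0.0238) in row 11, and the liver difference was 0.18 and 0.12. Of the 10 fits that each left out 1 array, row 8 was called in 3 and row 11 in 6, the fewest among the called rows. Row 15 was called in 7 of these fits and row 22 in 9. The set values were -0.61 in row 8 and -1.36 in row 11. Other called rows also lost their call with the set term, so it does not single out rows 8 and 11.

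The dimmest rows were 7 and 13. Row 7 read 3.06, 3.26, 4.16 and 3.37 on the parental arrays, 4.20, 2.79 and 3.02 on the liver arrays and 4.11, 3.28 and 2.88 on the lung arrays. Row 13 read 3.43, 3.26, 3.05 and 3.87 on the parental arrays, 3.15, 3.09 and 3.16 on the liver arrays and 3.57, 3.20 and 3.8 on the lung arrays. All groups overlapped in row 7, and both rows lay among the lowest 1.04% of row means of the table, where a lower level could not be seen. Rows 9, 10, 12 and 17 differed by -0.76 to -1.17 in lung derivatives and were not called, row 12 with an adjusted p of 0.0504.

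Rows 1 and 2 were not among the dim rows and did not follow the rest of the gene over these arrays. How well they report CD44 was not tested. Row 1 read 7.71, 8.13, 8.38 and 8.38 on the parental arrays, 7.94, 8.28 and 8.36 on the liver arrays and 7.87, 8.37 and 8.11 on the lung arrays. Row 2 read 10.09, 10.07, 10.39 and 10.25 on the parental arrays, 10.21, 10.05 and 10.16 on the liver arrays and 10.08, 10.21 and 10.21 on the lung arrays. In both rows all 3 groups overlapped, and the 10 arrays of row 2 stayed within 10.05 to 10.39. Their lung differences were -0.04 (SE 0.20) and -0.04 (SE 0.11). Over the 10 arrays, rows 1, 2, 7 and 13 were the 4 rows with a correlation under 0.5 with the mean of the other rows (0.08, 0.18, -0.13 and 0.004), while 10 rows reached at least 0.9; these are descriptions over arrays that fall into groups.

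Whether single rows changed differently from the rest of the gene was tested with limma's diffSplice, which sets the difference of a row against the mean difference of the gene's other rows. In lung against parental cells it called 6 of the 23 rows, and 10.8% of all rows. Because diffSplice gives all rows of a gene the same spread, and the group SDs of CD44 rows ran from 0.04 to 1.34, a second limma fit with a spread for each row was added after the data were seen. It called 7, and 5.51% of all rows. The 5 rows called by both fits (21.7%, against 3.78% of all rows) were rows 1, 2 and 13, which changed less than the rest, and rows 5 and 14, which changed more. The 3 rows called by a single fit were row 7 by diffSplice and rows 19 and 23 by the fit with separate spreads.

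Row 2 stood 1.18 above the mean difference of the other rows (SE 0.33 in diffSplice, limma adjusted p = 0.00882; SE 0.16 in the fit with separate spreads, limma adjusted p = 0.0143), and row 1 stood 1.19 above it (limma adjusted p = 0.00863 and 0.0254). Row 13 stood 1.35 above it (limma adjusted p = 0.00211 and 0.0145), but from a parental mean of 3.40. Rows 5 and 14 stood apart the other way, by -1.48 (limma adjusted p = 0.00061 and 0.0339) and by -1.53 (limma adjusted p = 0.000377 and 0.0396). When each array was left out in turn, diffSplice called rows 2, 5, 13 and 14 in 10 of 10 fits and row 1 in 8. With the set term 0 of the 23 rows were called by diffSplice, and row 2 stood 1.20 above the others with an adjusted p of 0.303.

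As a gene, CD44 had unequal row changes by the diffSplice F test in lung derivatives (F = 5.69, limma adjusted p = 2.94e-10). That test called 61.6% of 4340 genes in this comparison, so the call itself is common. In liver derivatives it called CD44 (F = 2.23, limma adjusted p = 0.0491) and 4.82% of genes, while 0 of the 23 rows were called by either limma fit. Of all rows 0.904% were called there by diffSplice, 0.259% by the fit with separate spreads and 109 of 54433 rows by both. There rows 1, 2, 8 and 11 lay 0.64 to 0.89 above the other rows and row 14 differed from them by -1.03, all uncalled. Their adjusted p in diffSplice lay between 0.149 and 0.761.

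**Figure D4:**
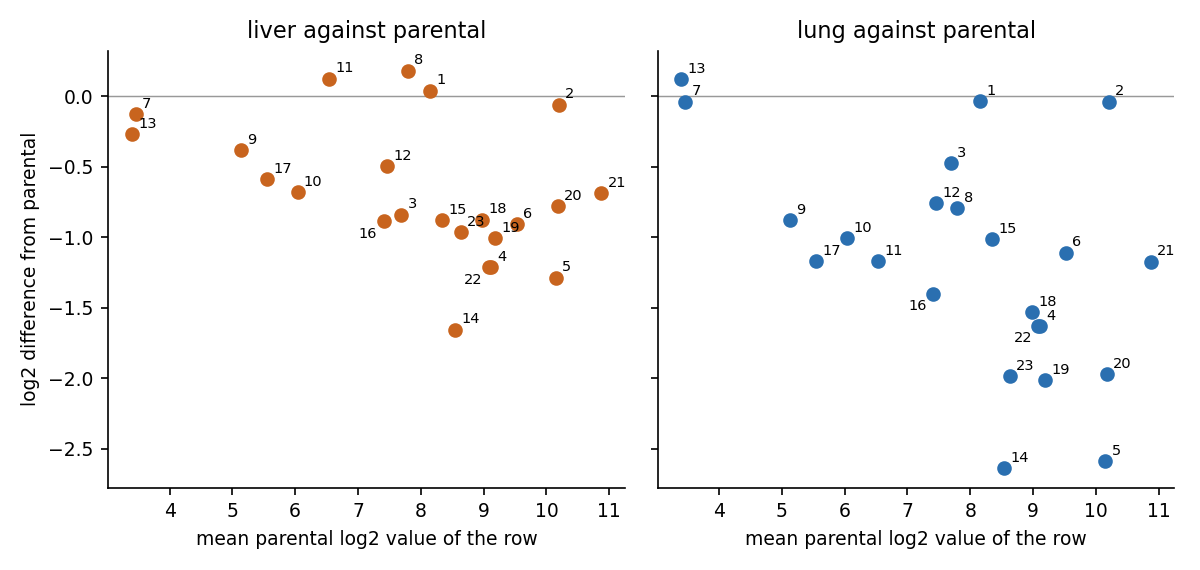
Log2 difference from parental cells (vertical axis) against the mean parental log2 value (horizontal axis) of each CD44 row, numbered, for liver and lung derivatives. Rows 7 and 13 lie near 0 at the dim end, and rows 1 and 2 lie near 0 at parental means of 8.15 and 10.20. In lung derivatives both lie apart from rows of like signal. In liver derivatives row 2 does, while row 8 (parental mean 7.80, difference 0.18) lies near row 1.

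The row differences also varied with signal. Across the 23 rows the difference from parental cells correlated with the parental level at Pearson r = -0.44 (Spearman rho = -0.47) in liver and r = -0.52 (rho = -0.53) in lung derivatives, a description across rows that share their arrays. The parental mean enters both measures. Of the 16 rows above the dimmest 25% 12 were called in lung derivatives, and 2 of the 7 dim rows. Without the dimmest 25% of rows, the CD44 mean differed by -0.79 in liver and -1.34 in lung derivatives. The part of signal in the uneven rows was not tested.

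Lung derivatives had less CD44 RNA than liver derivatives, though the call was lost without some single arrays and with the set term. The mean of rows was 1.41-fold lower (6.72 ± 0.24 against 7.22 ± 0.15, SD, n = 3 each; log2 difference -0.50, SE 0.12, limma adjusted p = 0.0205; 11.9% of genes were called lower and 8.02% higher). Row by row 6 of 23 were called, all lower (26.1%, against 7.61% of all rows lower and 5.02% higher), namely rows 5, 8, 11, 19, 20 and 23 with differences of -0.98 to -1.30. The groups did not overlap in 8 rows that were lower and in 1 that was higher, the dim row 13, against 24.2% and 18.1% of all rows. In 16 of 23 rows the means were in the order parental, liver, lung from high to low. The share of all rows in this order was not counted, so the count is not read as a result about CD44.

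The difference between the derivatives depended on single arrays. The adjusted p of the mean was 0.068 without liver replicate 2, 0.0724 without liver replicate 3 and 0.0703 without lung replicate 1, within a range of 0.00383 to 0.407 over 19 alternatives. With the set term it was -0.59 (limma adjusted p = 0.407), in a fit that called 0.0632% of all rows. The 6 called rows became 0 without any 1 liver replicate, 2 without lung replicate 1, 1 without lung replicate 2, and 3 without parental replicate 1, 2 or 3. The median SD of a row was 0.22 among parental, 0.29 among liver and 0.44 among lung arrays, and lung replicate 3 held the highest lung value in 16 of 23 rows. By diffSplice 0 CD44 rows were called in this comparison (5 without lung replicate 3). The fit with separate spreads called 4, rows 3, 11, 13 and 23, and 0 rows were called by both. Of all rows 13.6% were called by diffSplice, 9.50% by the fit with separate spreads and 6.52% by both. The diffSplice F test called CD44 (F = 2.04, limma adjusted p = 0.0108) and 68.6% of genes.

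Among 3930 other genes with at least 4 rows, those whose mean of rows followed that of CD44 most closely over the 10 arrays were RASAL2, a Ras GTPase-activating protein (Pearson r = 0.978), the inositol phosphatase INPP5B (0.975), the phosphoinositide kinase PIP4K2A (0.965), the Wnt5a receptor ROR1 (0.962) and the arginyltransferase ATE1 (0.948). The 10 arrays fall into groups, which raises such values, and 39 genes exceeded 0.9. The sizes differed: RASAL2 fell by 0.22 and INPP5B by 0.31 on the log2 scale in lung derivatives, while ROR1 differed by -0.998 in liver and -1.42 in lung derivatives (set value -1.44, limma adjusted p = 8.68e-05). RASAL2 (limma adjusted p = 0.103) and INPP5B (limma adjusted p = 0.0546) were not called with the set term. The brightest row of ROR1 moved the other way (1.26 in lung derivatives, limma adjusted p = 0.0241). The opposite profiles were OXCT2 (r = -0.981), the catecholamine enzyme TH (-0.964) and the hormone subunit GPHA2 (-0.958).

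Crypt and Wnt target genes were listed because CD44 belongs with them. Of 10 measured, 5 fell and 2 rose in liver derivatives and 4 fell and 2 rose in lung derivatives, with median differences of -0.17 and -0.04 against 0.01 and -0.01 for all genes; 7.83% and 30.1% of genes were called in either direction, and 19.9% in lung against liver derivatives. The R-spondin receptors LGR5 (-0.81 in liver, -1.27 in lung) and LGR6 (-0.42, -0.71) fell in both, as did the receptor kinase EPHB2 (-0.57, -0.48) and the beta-catenin cofactor BCL9 (-0.38, -0.36), and LGR4 fell in liver derivatives (-0.37; adjusted p = 0.0555 with the set term). The cyclin CCND2 (2.23, 1.33) and the secreted Wnt antagonist DKK1 (1.46, 1.36) rose in both. With the set term LGR5 (-1.11), LGR6 (-0.95) and CCND2 (1.93) were also called in lung derivatives, and EPHB2 (adjusted p = 0.0514), BCL9 and DKK1 were not.

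Hyaluronan and CD44 ligands and receptors gave 0 called of 9 in liver derivatives and 3 higher in lung derivatives: the proteoglycan core SRGN (0.92), the CD44 partner PDPN (0.35) and the endothelial selectin SELE (0.29). Called genes over all were 30.1% in lung derivatives, near the shares of this list (3 of 9) and of the shedding (2 of 6) and linker (3 of 10) lists below. None of the 3 lung differences was called with the set term, and SELE lost its direction by the median of its rows. In liver derivatives SRGN was called with the set term (0.45, limma adjusted p = 0.0228). In the shedding list of 6 genes, the gamma-secretase subunit PSEN2 rose in liver derivatives (0.27), and the proteases MMP7 (0.94) and MMP3 (0.49) rose in lung derivatives, with set values of 0.29 and 0.35 that were not called. Of 10 cytoskeletal linkers and signalling partners 0 were called in liver derivatives. In lung derivatives the membrane adaptor ANK3 (0.22) and the exchange factor VAV3 (0.22) rose and the lipid kinase PIK3C2A fell (-0.33), none of them called with the set term; VAV3 turned to -0.02 without the dimmest 25% of rows, and PIK3C2A to 0.11 by its brightest row.

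RNA-binding proteins of alternative splicing, listed because CD44 exons are chosen by splicing, gave 1 higher of 27 in liver derivatives, RBM17 (0.32). Of all genes 7.83% were called there. In lung derivatives 8 of 27 fell and 0 rose, where 17.3% of all genes fell and 30.1% were called either way, with a median of -0.14 against -0.01 for all genes. They were HNRNPA1 (-0.41), RBM14 (-0.36), SNRPE (-0.33), PTBP2 (-0.32), YBX3 (-0.25), SRSF10 (-0.23), HNRNPF (-0.19) and SF3A3 (-0.18). With the set term PTBP2 alone among them was called (-0.53, limma adjusted p = 0.0342), and by their brightest rows HNRNPA1, PTBP2 and SF3A3 were above the parental level (0.01, 0.42 and 0.17). Against liver derivatives HNRNPA1, YBX3, SF3B2, SF3A3, RBM14 and RBM17 were lower in lung derivatives, by 0.21 to 0.49 in size. These were 6 of 27, where 11.9% of all genes were called lower and 19.9% either way. None of these 6 differences was called with the set term.

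The nearest measured neighbours of CD44 on chromosome 11 were not called in either derivative. PDHX, a pyruvate dehydrogenase subunit gene on the side before it, differed by -0.01 in liver and -0.15 in lung derivatives, and SLC1A2, a glutamate transporter gene on the side after it, by 0.20 and 0.17. Of 11 neighbours the epithelial ETS factor EHF fell in liver derivatives (-0.47), and in lung derivatives ABTB2 (-0.25), FJX1 (-0.50) and LDLRAD3 (-0.45) fell and ELF5 (0.41) rose, 4 of 11 where 30.1% of all genes were called. None of these 4 lung changes was called with the set term.

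CD44 is also abundant on leukocytes and stromal cells, so their markers were read on the same arrays. The mean of 12 leukocyte genes ran from 6.55 to 6.63 on parental, 6.71 to 6.77 on liver and 6.83 to 6.93 on lung arrays. The median difference of these genes was 0.03 in liver and 0.19 in lung derivatives. Of them 2 were higher in liver derivatives, CD4 (0.99) and LYZ (0.97), where 7.83% of all genes were called. In lung derivatives 5 were higher and 1 lower, where 30.1% of all genes were called. CD3D, CD4 and LYZ were also called there with the set term, and PTPRC, CD53 and FCER1G were not. The mean of 7 stromal and mesenchymal genes ran from 7.61 to 7.84, 7.32 to 7.37 and 7.45 to 7.63. Of them LUM (-1.97) and ZEB1 (-0.59) fell in liver derivatives, LUM (-0.62), TAGLN (-0.36) and ZEB1 (-0.66) fell in lung derivatives, where DCN rose (0.26), and the most abundant member, VIM, differed by 0.14 and 0.05 without a call. LUM and ZEB1 were also called in lung derivatives with the set term, and TAGLN and DCN were not. The mean of the 10 epithelial and colon genes ran from 8.81 to 8.88, 8.96 to 9.02 and 9.17 to 9.18. Their median difference was 0.03 in liver and -0.02 in lung derivatives, so the rise of the mean was not general to the list. RAB25 had the largest difference of the list (3.01 in liver, 3.996 in lung). ELF3 (-0.51, -0.25) and TSPAN8 (-1.12, -0.43) fell in both derivatives. With the set term TSPAN8 was not called in lung derivatives (-0.58). The part of these cell types in the CD44 values was not tested.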

How the data were processed

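RNA of 10 cell samples was hybridised to Affymetrix HG1.0ST chips, per the labels. The authors deposited log2 values; the submitters' processing notes name RMA and the R package oligo, and versions, summary level and genome build are not given in the sources used here. RMA equalises the distributions of the arrays, which hides changes in total RNA per cell. The table used has 65535 rows, an older spreadsheet limit, and genes outside it were not analysed here. Rows were named from the platform annotation, with older symbols updated through RefSeq. Each row was fitted with limma 3.58.1 (R 4.3.3), 1 coefficient per group over all 10 arrays, two-sided, with Benjamini-Hochberg adjustment and a threshold of 0.05 and no filter on dim rows. The same fit was run on the mean of all rows of each of 4713 genes, and diffSplice on 54433 rows of 4340 genes. The fits were tested on simulated data, where diffSplice also called rows of groups made without a change. A fit with a spread for each row was therefore added. Rows are described as apart where both fits call them, and other counts of rows apart name their fit. The number of arrays limits the precision.

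The members, gene lists and tests were chosen with earlier results of these data known. Named genes were every CD44 row, called members of the gene lists, and the 5 most and 3 least alike profiles; KRT8, KRT18, PTPRC, VIM, PDHX and SLC1A2 were named as uncalled or defining members. Same-numbered arrays of different groups had residual correlations of -0.12 to 0.04, so the numbers do not pair the arrays. Alternatives were further scaling, a filter, the array set, a replicate block, a trend, array weights, other row summaries and leaving out each array.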

Additional observations from a re-analysis of the deposited data

Results flagged for a closer look

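Among the 24 sets of 4 parental values tested (23 rows and their mean), 2 held an array far from the others. Row 20 read 9.79 in parental array 4, and the gap to the next array was 0.847 of the range. Row 23 read 8.49 in parental array 3, with a gap of 0.887 of the range, though the whole parental range of that row was narrow. Chance alone flags about 1 in 20 such sets.

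The difference from parental cells was larger in lung than in liver derivatives for the CD44 mean of rows (-0.50, limma adjusted p = 0.0205), tested as the contrast between the derivatives. It was also larger for row 5 (-1.30, limma adjusted p = 0.0499), row 8 (-0.98, limma adjusted p = 0.0323), row 11 (-1.29, limma adjusted p = 0.026), row 19 (-1.01, limma adjusted p = 0.0393), row 20 (-1.19, limma adjusted p = 0.0494) and row 23 (-1.02, limma adjusted p = 0.021). With the set term, 0 of these 7 differences were called.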

How the results depend on the processing

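The CD44 mean of rows kept its direction in all 3 comparisons under the 19 alternatives run for each. The brightest row alone lost the call in liver against parental (-0.69, adjusted p = 0.186) and in lung against liver (-0.49, adjusted p = 0.135), and the set term lost the latter (-0.59, adjusted p = 0.407). Leaving out single arrays gave -0.76 to -0.62 for liver against parental, -1.31 to -1.08 for lung against parental and -0.64 to -0.41 for lung against liver. Called CD44 rows moved from 3 in liver against parental to 5 without the dimmest 25% of rows, 5 with an intensity trend and 12 with array weights. They moved from 14 to 3 in lung against parental and from 6 to 0 in lung against liver with the set term. Leaving out single arrays gave 2 to 7, 10 to 15 and 0 to 6 called rows in the 3 comparisons. The share of all rows called was counted only for the fit as reported and the fit with the set term. Rows apart by diffSplice moved from 0 in liver against parental to 1 without the dimmest 25% and 4 with array weights, and from 6 in lung against parental to 0 with the set term. In lung against liver they moved from 0 to 2 without the dimmest 25%, 2 with the replicate block, 1 with array weights and 4 with separate spreads, and leaving out single arrays gave 0 to 5 (4 to 9 in lung against parental). The replicate block left 2, 14 and 6 called rows and mean differences of -0.65, -1.15 and -0.50; it changed no other call of the CD44 mean. No difference of a single CD44 row changed sign where it was called as reported or under the alternative; uncalled ones did, such as row 13 with the set term (-0.35 in lung against parental and -0.24 in lung against liver).

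Among other named genes 18 values that were called as reported or under the alternative reversed, and the cause was not tested; sign changes of values called in neither are not counted. By the brightest row these were, in liver against parental, CD4 (-0.065) and ZEB1 (0.36); in lung against parental, PIK3C2A (0.11), HNRNPA1 (0.014), PTBP2 (0.42), SF3A3 (0.17), CD3D (-0.083), FCER1G (0.37), INPP5B (0.17) and ROR1 (1.26); and in lung against liver, HNRNPA1 (0.062), SF3A3 (0.050), CD3D (-0.14), CD4 (0.16) and ROR1 (1.68). VAV3 turned to -0.017 without the dimmest 25% and SELE to -0.056 by the median of rows, both in lung against parental, and SRGN to -0.19 in lung against liver with the set term. Dim rows such as 7 and 13 have little signal over background, which limits what a lower level there can show.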

Other observations

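Of the CD44 rows, 3 pairs held exactly equal deposited values on 1 array each. Rows 7 and 13 both read 3.26 on parental array 2, rows 14 and 16 both read 6.31 on liver array 2, and rows 8 and 12 both read 7.11 on lung array 3. Over the 10 arrays, 39 of 3930 genes had a mean of rows that correlated with that of CD44 above 0.9, and 20 had a correlation under -0.9.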
